A study of Mus musculus with 19 samples.

Results

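Genes of the secretory epithelium of the airway were followed in RNA from lavage cells of ICAM-1 null and wild type mice. The set holds 8 of the 56941 genes in the deposited tables: Scgb1a1, Scgb3a1, Scgb3a2, Bpifa1, Bpifb1, Cyp2f2, Tppp3 and Cdh1. They were chosen by name, as secreted products, an enzyme and surface or cytoskeletal genes of airway epithelial cells. Earlier results of these data were known at that choice, so counts of genes called among them are a description. The cells came from bronchoalveolar lavage, a rinse of the airspaces, and the labels call them alveolar macrophages, the resident phagocytes of those airspaces. RNA from each pellet was sequenced in bulk after poly(A) selection.

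All mice were female and 7 to 8 weeks old. The 4 groups were ICAM-1 null mice exposed to bioparticles (n = 5), naive ICAM-1 null mice (n = 5), exposed wild type C57Bl/6J mice (n = 5) and naive wild type mice (n = 4). Exposed mice received 100 µL of pHrodo-labelled Staphylococcus aureus bioparticles at 2.27 mg/mL by oropharyngeal aspiration under isoflurane, and were lavaged 1 h later with buffer that held 2 mM EDTA. The labels do not say that naive mice were given buffer or anaesthetic, so effects of the bioparticles and of the aspiration cannot be told apart. They also give no background strain for the null line. Effects of losing ICAM-1, a leukocyte adhesion molecule, and of other line differences cannot be told apart. Icam1 lay at 9.48 to 13.2 TPM in exposed null and 4.88 to 11.5 TPM in naive null libraries, against 722 to 1079 TPM in exposed wild type and 63.8 to 85.9 TPM in naive wild type libraries. Each library held 32.8 to 80.3 M estimated counts. The summed level of 15 alveolar macrophage genes was 56465 to 60554 TPM in exposed null and 59715 to 62282 TPM in naive null libraries, against 42334 to 53162 TPM in exposed wild type and 47536 to 50114 TPM in naive wild type libraries, where TPM is a library-scaled transcript abundance that accounts for gene length. Every null library lay above every wild type library in this sum, and its part in the comparisons between genotypes was not tested.

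Club cells are the secretory cells of the small airways. They release secretoglobins, small proteins of the airway lining fluid, and carry cytochrome P450 enzymes that metabolise inhaled compounds. Secretory cells of the larger airways also release BPI fold proteins, which coat the airway surface and act against microbes. Ciliated cells stand between them and move the fluid upward, and E-cadherin joins all of these cells to their neighbours.

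Promoter sequence is shown for 4 of the 8 genes, from RefSeq on build GRCm38.p6. Each of these 4 genes rose after exposure in both genotypes, and a link between sequence and rise was not tested. Each run holds the 250 bases before the start of transcription on the plus strand, 5′ to 3′. Capitals mark matches, on either strand, to 5 short motifs: FOXA (TGTTTAC or TGTTTGC), C/EBP (TTGCNNAA), NKX2-1 (TCAAG), NF-kB (GGGNNTTCC) and the TATA box (TATAAA).
Scgb3a1, chr11:49663345-49663594: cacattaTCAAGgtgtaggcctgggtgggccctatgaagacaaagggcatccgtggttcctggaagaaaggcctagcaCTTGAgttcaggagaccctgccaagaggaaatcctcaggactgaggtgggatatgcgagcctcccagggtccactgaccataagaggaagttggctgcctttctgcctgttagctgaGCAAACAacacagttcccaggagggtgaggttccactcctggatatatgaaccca
Bpifb1, chr2:154190568-154190817: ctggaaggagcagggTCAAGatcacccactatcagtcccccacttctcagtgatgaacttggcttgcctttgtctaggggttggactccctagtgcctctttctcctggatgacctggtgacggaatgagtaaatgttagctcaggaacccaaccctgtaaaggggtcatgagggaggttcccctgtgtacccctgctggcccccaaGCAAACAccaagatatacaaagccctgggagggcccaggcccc
Bpifa1, chr2:154142630-154142879: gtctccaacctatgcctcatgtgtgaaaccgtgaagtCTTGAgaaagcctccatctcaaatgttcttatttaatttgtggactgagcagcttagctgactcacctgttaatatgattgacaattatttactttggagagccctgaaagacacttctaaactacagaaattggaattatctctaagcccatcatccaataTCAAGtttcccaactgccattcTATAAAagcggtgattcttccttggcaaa
Cyp2f2, chr7:27119705-27119954: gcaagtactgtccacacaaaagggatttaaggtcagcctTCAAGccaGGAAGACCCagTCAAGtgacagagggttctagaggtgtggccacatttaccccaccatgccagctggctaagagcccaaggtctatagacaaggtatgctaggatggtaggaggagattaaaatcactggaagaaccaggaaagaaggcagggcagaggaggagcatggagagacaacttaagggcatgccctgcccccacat

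The Scgb3a1 and Bpifb1 windows each held GCAAACA, the FOXA letters on the minus strand, beginning at -55 and -43 from the start. FOXA letters were present in 7.29% of 32851 mouse promoter windows of the same length. The NKX2-1 letters occurred in all 4 windows, at -243 and -172 in Scgb3a1, -235 in Bpifb1, -51 and -213 in Bpifa1, and -211 and -192 in Cyp2f2, but 35.9% of all windows also held them. Bpifa1 had a TATA box at -29, a motif found in 12.4% of windows. Cyp2f2 had the NF-kB letters at -203, which 4.98% of windows held. No C/EBP match was present in these 4 windows, against 9.56% of all windows, and a second Bpifb1 start (chr2:154200130-154200379) held none of the motifs. None of the 11 matches overlapped another. These matches describe letters and not bound sites.

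The genes lie on 6 chromosomes of the mouse build GRCm39, in the coordinates of the deposited tables. Scgb1a1 (ENSMUSG00000024653.3) is at chromosome 19, 9061000 to 9065322. Scgb3a1 (ENSMUSG00000064057.13) is at chromosome 11, 49554437 to 49555945. Scgb3a2 (ENSMUSG00000038791.15) is at chromosome 18, 43897354 to 43900464. Bpifa1 (ENSMUSG00000027483.8), at 153984800 to 153991139, and Bpifb1 (ENSMUSG00000027485.16), at 154032738 to 154062289, are both on chromosome 2. Cyp2f2 (ENSMUSG00000052974.9) is at chromosome 7, 26819334 to 26833085. Tppp3 (ENSMUSG00000014846.13), at 106194125 to 106198158, and Cdh1 (ENSMUSG00000000303.13), at 107329983 to 107396878, are both on chromosome 8. All 8 are annotated as protein coding.

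After exposure, all 6 secretory genes (the secretoglobins, the BPI fold genes and Cyp2f2) rose in both genotypes, whereas Tppp3 and Cdh1 did not rise in either. All 8 genes passed the filter on low counts. In ICAM-1 null mice 6 of 8 genes rose, against 21.4% of the 20501 genes tested, and 1 fell, against 23.4%. In wild type mice 6 of 8 rose, against 20.1% of genes tested, and none fell, against 20.2%. In edgeR the 6 secretory genes were 2.36 to 4.05 times higher in exposed than in naive null mice. In wild type mice they were 2.16 to 6.82 times higher. These folds include TMM library scaling factors, which were 0.865 to 0.955 in exposed and 1.11 to 1.17 in naive libraries. Ratios of mean TPM, which lack these factors, were smaller, at 1.85 to 3.51 in null and 1.64 to 5.13 in wild type mice. Separation and overlap of groups are given below in TPM, so they also lack these factors and can differ on the tested scale. In bulk RNA, a change in the number of cells of a type and a change in RNA per cell cannot be told apart. Tests are edgeR quasi-likelihood tests with Benjamini-Hochberg adjustment over all genes tested, and SE denotes the standard error of a log2 value.

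**Figure D1:**
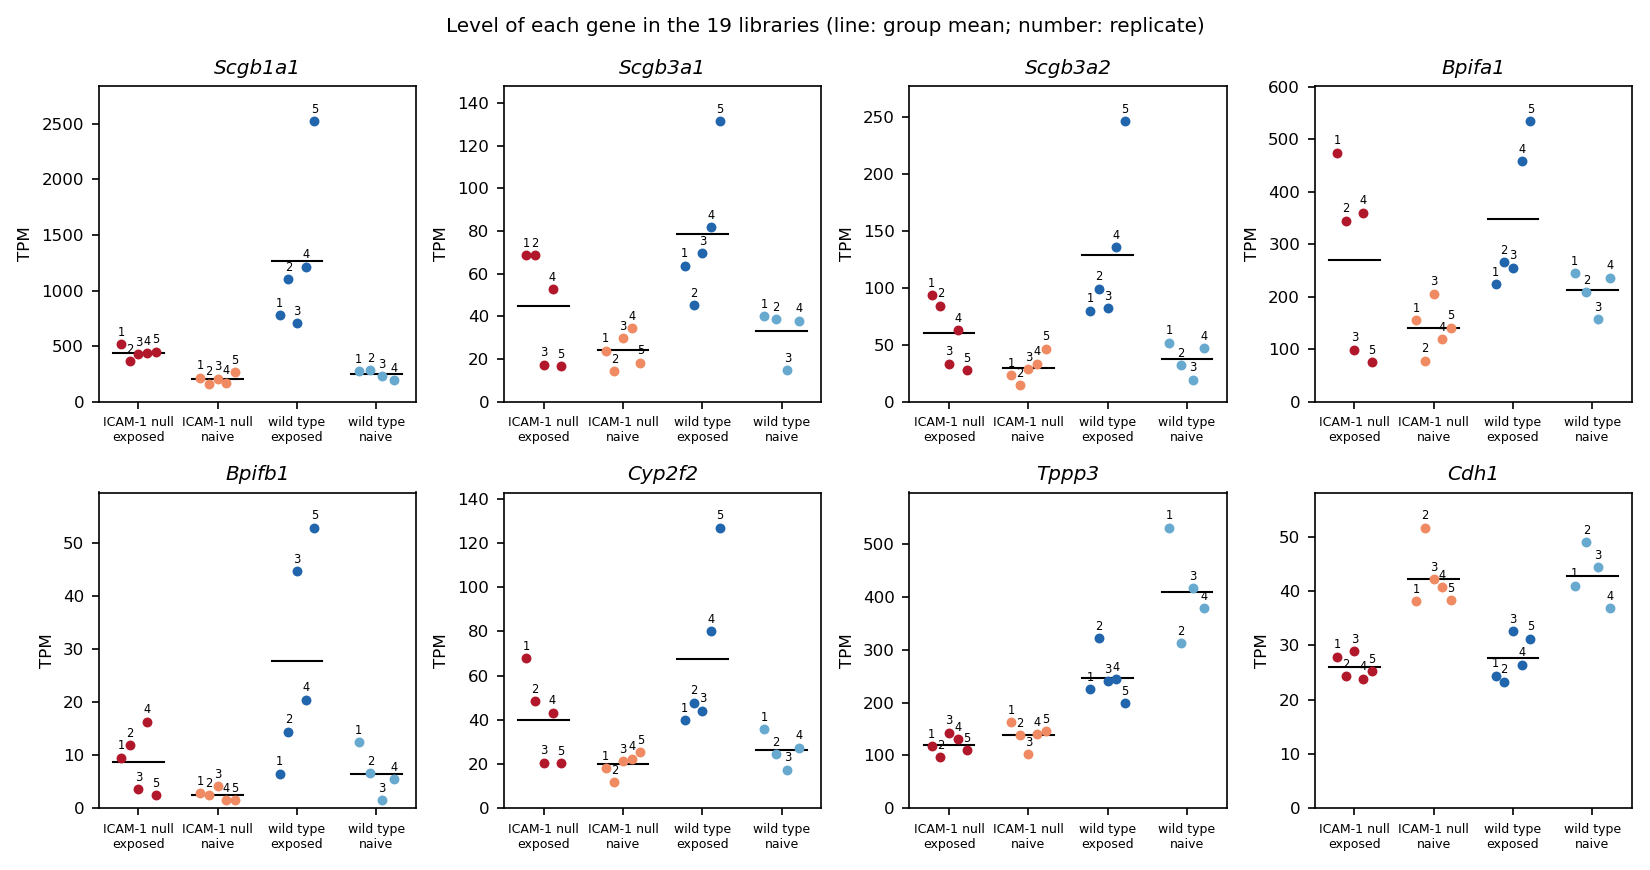
TPM of the 8 genes in each of the 19 libraries, with 1 panel per gene and a linear axis from 0. Points are libraries with their replicate number, and lines are group means. Scgb1a1 in the 5 exposed wild type libraries (707 to 2525 TPM) lies above every other library, and Tppp3 has its highest mean (409 TPM) in naive wild type libraries.

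Scgb1a1 encodes the club cell secretory protein and had the highest secretory level in most libraries. In null mice it stood at 516, 365, 431, 435 and 451 TPM in exposed libraries, against 218, 165, 209, 172 and 264 TPM in naive libraries. In wild type mice it stood at 782, 1103, 707, 1215 and 2525 TPM in exposed libraries, against 279, 284, 229 and 197 TPM in naive libraries. Every exposed library lay above every naive library of its genotype, and every exposed wild type library lay above every exposed null library, while the naive groups overlapped. The log2 fold change was 1.45 in null mice (SE 0.26, adjusted p = 1.0e-04) and 2.77 in wild type mice (SE 0.30, adjusted p = 1.8e-07). Without exposed wild type replicate 5, the highest library, the wild type value was 2.30 and still passed.

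Scgb3a2 encodes a secretoglobin of club cells. It stood at 93.9, 84.5, 33.5, 62.8 and 27.6 TPM in exposed null libraries, against 23.3, 14.9, 29.0, 33.6 and 46.6 TPM in naive null libraries. It stood at 80.2, 99.4, 82.2, 136 and 247 TPM in exposed wild type libraries, against 52.0, 31.9, 19.5 and 47.3 TPM in naive wild type libraries. The wild type groups were separate, whereas exposed null replicates 3 and 5 lay within the naive null range. In edgeR the log2 fold change was 1.35 in null mice (SE 0.39, adjusted p = 0.0068) and 2.16 in wild type mice (SE 0.43, adjusted p = 3.4e-04).

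Scgb3a1 encodes the related secretoglobin of larger airways. It stood at 68.8, 68.8, 17.4, 52.9 and 16.8 TPM in exposed null libraries, against 24.0, 14.3, 29.9, 34.5 and 18.4 TPM in naive null libraries. It stood at 63.8, 45.3, 69.7, 81.9 and 131 TPM in exposed wild type libraries, against 40.1, 38.8, 14.7 and 38.1 TPM in naive wild type libraries. Again the groups were separate in wild type mice and overlapped in null mice through exposed replicates 3 and 5. By edgeR, its log2 fold change was 1.24 in null mice (SE 0.40, adjusted p = 0.014) and 1.66 in wild type mice (SE 0.43, adjusted p = 0.0039). The null call was lost with limma on log2(TPM + 1), where the log2 fold change was 0.68 (adjusted p = 0.16).

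The secretoglobin family was otherwise nearly silent. Of 70 rows with an Scgb symbol, 4 had any count, namely these 3 genes and Scgb1c1, which averaged 0.0814 TPM in exposed null, 0 TPM in naive null, 0.124 TPM in exposed wild type and 0.115 TPM in naive wild type libraries. Of 14 rows with a Bpif symbol, 6 had any count and 2 reached a group mean of 0.1 TPM, which were Bpifa1 and Bpifb1.

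Bpifa1 encodes SPLUNC1, a surface-active host defence protein of the upper and conducting airways. It stood at 474, 344, 99.2, 359.9 and 75.7 TPM in exposed null libraries, against 155, 78.4, 206, 119 and 141 TPM in naive null libraries. It stood at 224, 266, 255, 458 and 534 TPM in exposed wild type libraries, against 245, 208, 158 and 236 TPM in naive wild type libraries. In TPM, which lacks the TMM factors of the test, the groups overlapped in both genotypes. The edgeR log2 fold change was 1.29 in null mice (SE 0.40, adjusted p = 0.011) and 1.11 in wild type mice (SE 0.42, adjusted p = 0.041). The wild type call was lost with no filter on low counts (adjusted p = 0.064), without exposed replicate 4 (0.085) or 5 (0.12), and without any 1 of the naive replicates (0.061 to 0.11). With limma on log2(TPM + 1) neither genotype passed, at 0.68 in null mice (adjusted p = 0.18) and 0.64 in wild type mice (adjusted p = 0.23).

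Bpifb1 encodes LPLUNC1, a related protein of goblet and other secretory cells. It stood at 9.54, 11.9, 3.60, 16.3 and 2.47 TPM in exposed null libraries, against 2.84, 2.42, 4.19, 1.49 and 1.52 TPM in naive null libraries. It stood at 6.55, 14.4, 44.6, 20.4 and 52.8 TPM in exposed wild type libraries, against 12.5, 6.65, 1.53 and 5.49 TPM in naive wild type libraries. It was the least abundant of the 8 genes in most libraries and the groups overlapped in both genotypes. In edgeR the log2 fold change was 2.02 in null mice (SE 0.54, adjusted p = 0.0045) and 2.48 in wild type mice (SE 0.59, adjusted p = 0.0019).

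Cyp2f2 encodes the cytochrome P450 of mouse club cells that activates naphthalene. It stood at 67.8, 48.4, 20.7, 43.2 and 20.4 TPM in exposed null libraries, against 18.3, 11.9, 21.2, 22.4 and 25.3 TPM in naive null libraries. It stood at 39.8, 47.7, 44.2, 80.0 and 127 TPM in exposed wild type libraries, against 35.6, 24.3, 17.5 and 27.4 TPM in naive wild type libraries. The wild type groups were separate and the null groups overlapped. By edgeR, its log2 fold change was 1.37 in null mice (SE 0.35, adjusted p = 0.0028) and 1.77 in wild type mice (SE 0.38, adjusted p = 7.4e-04).

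Tppp3, which encodes a tubulin-binding protein used as a ciliated cell marker, did not pass the exposure test in either genotype. It stood at 118, 97.1, 143, 131 and 110 TPM in exposed null libraries, against 162, 139, 102, 141 and 146 TPM in naive null libraries. It stood at 226, 321, 240.3, 244 and 199 TPM in exposed wild type libraries, against 531, 312, 416 and 378 TPM in naive wild type libraries. Null libraries were lower than wild type libraries in both conditions, without overlap. The log2 fold change was 0.17 in null mice (SE 0.14, adjusted p = 0.33), which changed sign to -0.20 with limma on log2(TPM + 1), and -0.33 in wild type mice (SE 0.14, adjusted p = 0.069). On that TPM scale the wild type value was -0.72 and passed (adjusted p = 5.4e-04), with the median of all genes at -0.19 in null and -0.22 in wild type mice.

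Cdh1, which encodes E-cadherin, fell in null mice and did not pass the test in wild type mice. It stood at 27.9, 24.4, 29.0, 23.9 and 25.2 TPM in exposed null libraries, against 38.2, 51.7, 42.2, 40.8 and 38.3 TPM in naive null libraries. It stood at 24.5, 23.3, 32.6, 26.5 and 31.2 TPM in exposed wild type libraries, against 41.0, 49.1, 44.4 and 36.9 TPM in naive wild type libraries. In TPM, which lacks the TMM factors of the test, every exposed library lay below every naive library of its genotype. In edgeR the log2 fold change was -0.34 in null mice (SE 0.11, adjusted p = 0.012) and -0.25 in wild type mice (SE 0.11, adjusted p = 0.084), and the interaction did not pass (adjusted p = 0.91). The null call was lost without naive null replicate 2 (adjusted p = 0.0501), and with limma on log2(TPM + 1) the wild type value was -0.62 and passed (adjusted p = 8.2e-05). On that TPM scale the median of all genes was -0.19 in null and -0.22 in wild type mice.

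**Figure D2:**
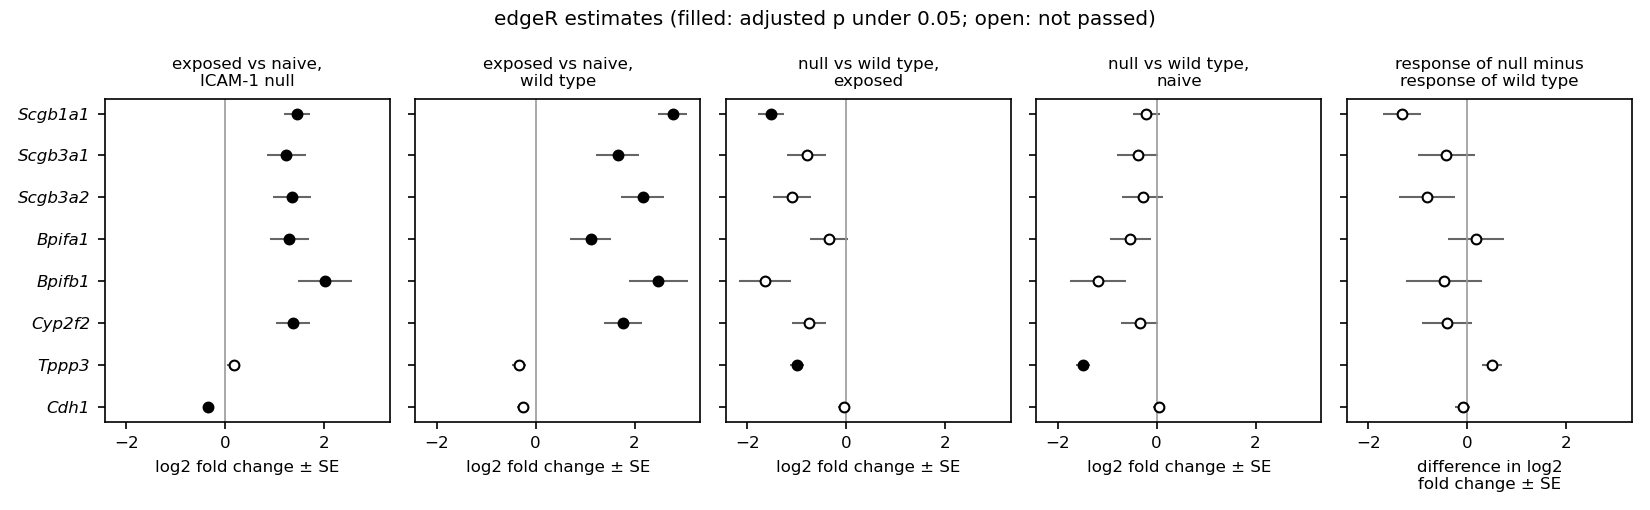
edgeR log2 fold changes of the 8 genes with standard errors, 1 panel per comparison, and filled points for an adjusted p under 0.05. The 6 secretory genes are filled and above 0 in both exposure panels, Scgb1a1 and Tppp3 are filled and below 0 in exposed null against exposed wild type mice, and no point is filled in the interaction panel.

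Between genotypes after exposure, Scgb1a1 and Tppp3 were lower in null mice. Thus 2 of 8 genes were lower, against 4.04% of the genes tested. The log2 difference of Scgb1a1 was -1.52 (SE 0.26, adjusted p = 4.7e-04) and that of Tppp3 was -0.99 (SE 0.14, adjusted p = 3.2e-05). Without exposed wild type replicate 5 the Scgb1a1 difference was -1.05 and still passed (adjusted p = 0.0022). Bpifb1 was at -1.65 (SE 0.52, adjusted p = 0.057), and it passed with DESeq2 (adjusted p = 0.047) and with the stricter filter on low counts (adjusted p = 0.044). Scgb3a2 was at -1.09 (SE 0.38, adjusted p = 0.086), Scgb3a1 at -0.80 (SE 0.39), Cyp2f2 at -0.75 (SE 0.34) and Bpifa1 at -0.35 (SE 0.39), and none of these passed.

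In naive mice Tppp3 was the gene of the 8 that passed, which is 1 of 8 lower in null mice against 2.55% of the genes tested. Its log2 difference was -1.49 (SE 0.14, adjusted p = 2.5e-07). The secretory genes lay between -1.18 for Bpifb1 (SE 0.57, adjusted p = 0.29) and -0.21 for Scgb1a1 (SE 0.27, adjusted p = 0.81), and Cdh1 was at 0.04 (SE 0.11). A p that misses the threshold does not show equal levels in the naive groups.

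The response itself was compared by the interaction term, in which the wild type response is subtracted from the null response. None of the 8 genes passed with edgeR, DESeq2 or limma, against 0.332% of the genes tested with edgeR, and 2 had an unadjusted edgeR p under 0.05. These were Scgb1a1, at -1.32 (SE 0.38, adjusted p = 0.18), and Tppp3, at 0.50 (SE 0.20, adjusted p = 0.37). The difference in Scgb1a1 after exposure is therefore not shown to be a difference in response.

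The secretory genes did not keep fixed proportions to each other. The ratio of Bpifa1 to Scgb1a1 TPM was 0.168 to 0.944 in exposed null and 0.476 to 0.987 in naive null libraries, which overlapped. In wild type mice it was 0.212 to 0.377 in exposed libraries, below every naive library at 0.688 to 1.20. The ratio of Cyp2f2 to Scgb1a1 was likewise lower in exposed wild type libraries, at 0.0433 to 0.0658, against 0.0764 to 0.139 in naive wild type libraries. In null mice it overlapped, at 0.0452 to 0.133 in exposed and 0.0725 to 0.130 in naive libraries. The ratios of Scgb3a1, Scgb3a2 and Bpifb1 to Scgb1a1 overlapped between exposed and naive libraries in both genotypes. Scgb3a2 to Scgb1a1 was tightest in exposed wild type libraries, at 0.0902 to 0.116, against 0.0853 to 0.240 in naive ones. These ratios were described without a test.

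Single libraries differed together. Exposed wild type replicate 5 was the highest of its group for all 6 secretory genes. Exposed null replicates 3 and 5 held the lowest 2 values of their group for 6 and 5 of the 6 genes, yet their Scgb1a1 levels were within those of the other exposed null libraries. Scgb1a1 therefore made up 71.2% and 75.9% of the summed TPM of the 6 genes in these 2 libraries, against 41.9%, 39.5% and 44.9% in exposed null replicates 1, 2 and 4. It made up 41.8% to 57.4% in naive null, 58.8% to 70.0% in exposed wild type and 35.7% to 52.1% in naive wild type libraries.

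**Figure D3:**
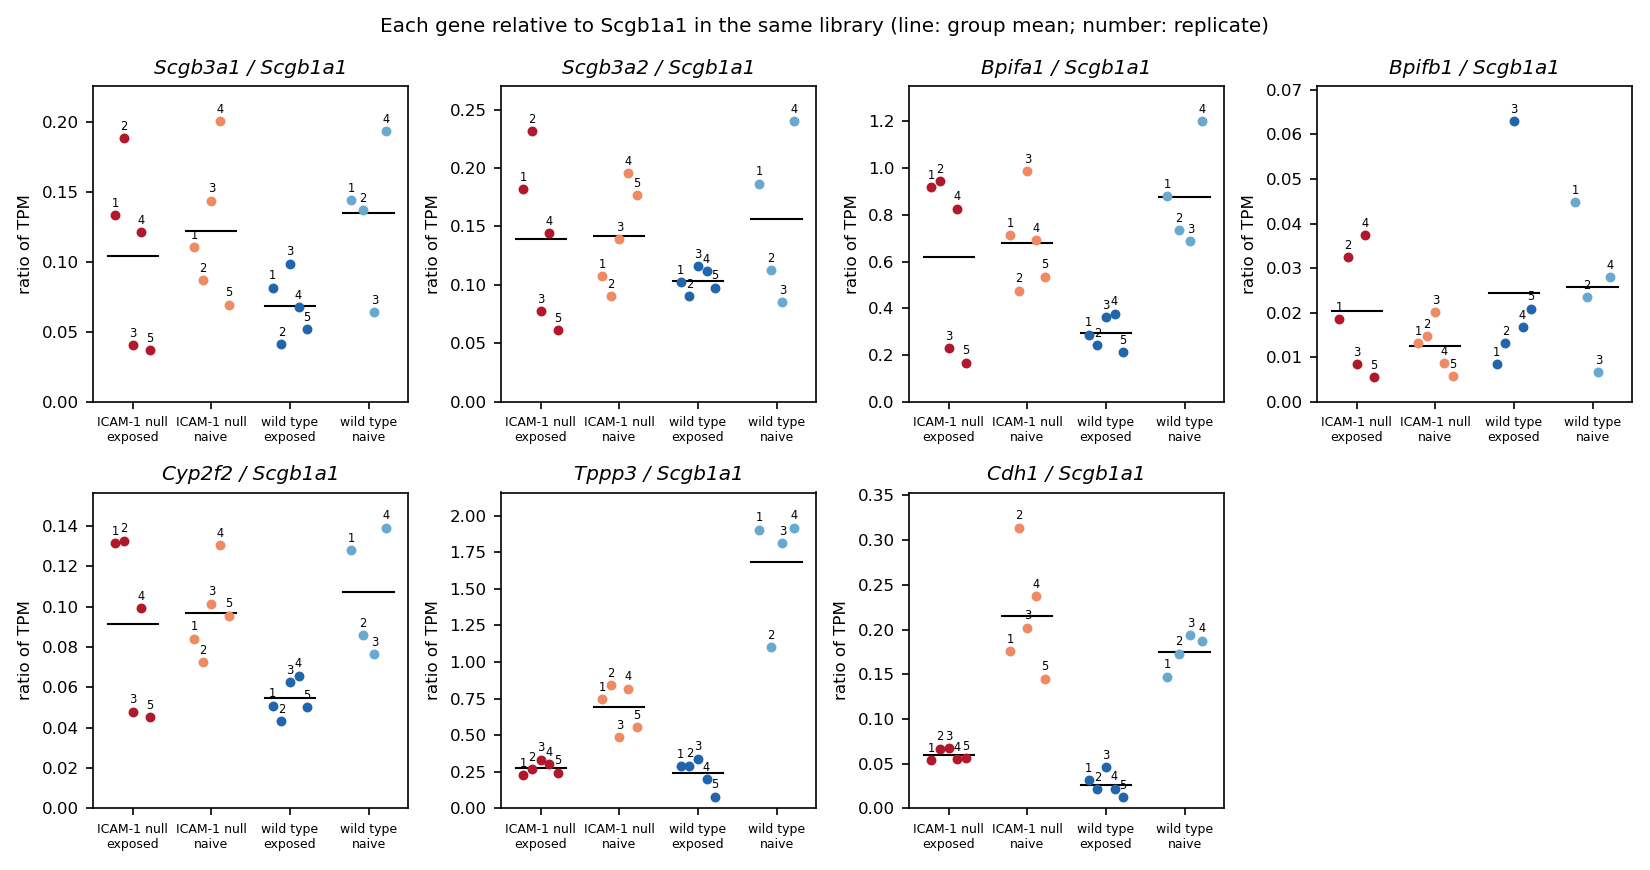
Ratio of the TPM of each gene to that of Scgb1a1 in the same library, with group means as lines and replicate numbers beside points. Exposed null replicates 3 and 5 lie apart from replicates 1, 2 and 4 for Scgb3a1, Scgb3a2, Bpifa1, Bpifb1 and Cyp2f2, and the Bpifa1 ratio of exposed wild type libraries (0.212 to 0.377) lies below that of naive wild type libraries (0.688 to 1.20).

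Most other club and secretory cell genes tested also rose after exposure. Their summed TPM, which lacks the TMM factors and weights abundant genes most, overlapped between exposed and naive libraries. Of 40 such genes, 38 were tested. In null mice 24 rose, against 21.4% of all genes tested, and none fell, against 23.4%, with a median log2 fold change of 1.16. In wild type mice 31 rose, against 20.1%, and none fell, against 20.2%, with a median of 1.74. The sum over the 40 genes was 992 to 1127 TPM in exposed and 1005 to 1138 TPM in naive null libraries. It was 978 to 1289 TPM in exposed and 998 to 1075 TPM in naive wild type libraries. The medians of all genes tested were 0.02 in both genotypes. Cbr2, a carbonyl reductase of lung epithelium, averaged 64.5 ± 16.9 TPM in exposed and 38.6 ± 17.4 TPM in naive null libraries (SD, n = 5 each), and rose by 1.15 on the log2 scale (SE 0.26, adjusted p = 0.0010). It averaged 106 ± 37.7 TPM in exposed (SD, n = 5) and 38.7 ± 6.01 TPM in naive wild type libraries (SD, n = 4), and rose by 1.87 (SE 0.29, adjusted p = 1.9e-05). Por, the electron donor of cytochrome P450 enzymes, rose by nearly the same amount in null (1.13, SE 0.11) and wild type mice (1.14, SE 0.12). Creb3l1, a transcription factor of secretory cells, rose by 2.51 in null (SE 0.24) and 2.06 in wild type mice (SE 0.26). Hp, which encodes the haemoglobin-binding protein haptoglobin, rose by 0.65 in null (SE 0.25) and 2.05 in wild type mice (SE 0.28). Between exposed genotypes, 34 of these 38 genes did not pass. In null mice 3 were lower, against 4.04% of all genes tested, and 1 was higher, against 4.43%. The 3 lower were Hp (-1.22), Pigr (-1.14) and Pon1 (-1.47), and Creb3l1 (1.17) was higher.

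Of 32 other ciliated cell genes tested, 6 rose and none fell in null mice (median log2 fold change 0.79). Over all genes tested 21.4% rose, near the share of this list, and 23.4% fell (median 0.02). In wild type mice 13 rose and 1 fell (median 1.97), against 20.1% higher and 20.2% lower over all genes tested (median 0.02). Some of these genes had large errors, such as Tekt4 (SE 1.1 in null and 1.4 in wild type mice), which limits the number of calls. Foxj1, the master regulator of motile cilia, averaged 3.14 TPM in exposed and 2.56 TPM in naive null libraries, and 3.70 TPM in exposed and 1.38 TPM in naive wild type libraries. It rose in wild type mice (1.78, SE 0.33, adjusted p = 1.7e-04) and did not pass in null mice (0.65, SE 0.29, adjusted p = 0.080). Ccdc153, another ciliated cell gene, rose by 1.25 in null (SE 0.41) and 2.76 in wild type mice (SE 0.48). In naive wild type libraries Tppp3 averaged 409 TPM, against 1.38 TPM for Foxj1, 1.27 TPM for Ccdc153 and 152 TPM for Tubb4b, a tubulin that many other cells also carry. The cell source of Tppp3 RNA was not tested.

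Cdh1 is set beside other general epithelial genes, whose responses and levels differed. The cell source of the RNA of Cdh1 and of these genes was not tested. Krt8, a keratin of simple epithelium, averaged 3.87 TPM in exposed and 2.52 TPM in naive null libraries, and 6.93 TPM in exposed and 2.33 TPM in naive wild type libraries, and it rose in both genotypes (0.97, SE 0.28 in null, and 1.94, SE 0.31 in wild type mice). Krt18, its partner keratin, rose by 1.10 in null (SE 0.29) and 1.94 in wild type mice (SE 0.33). Krt19, a further keratin of simple epithelium, averaged 405 TPM in exposed and 507 TPM in naive null libraries, and 450.1 TPM in exposed and 611 TPM in naive wild type libraries. It did not pass in null (0.03, SE 0.16, adjusted p = 0.90) or wild type mice (-0.07, SE 0.17, adjusted p = 0.77). Epcam, an epithelial adhesion molecule, did not pass in either genotype (-0.27, SE 0.13 in null, and -0.26, SE 0.14 in wild type mice), and averaged 110.0 TPM in exposed and 169 TPM in naive null libraries, against 54.1 TPM in exposed and 84.7 TPM in naive wild type libraries. Of 31 general epithelial genes tested, 11 rose and 4 fell in null mice and 16 rose and 2 fell in wild type mice, against 21.4% higher and 23.4% lower in null and 20.1% higher and 20.2% lower in wild type mice over all genes tested. Marveld2, a protein of 3-cell tight junctions, fell by 1.73 on the log2 scale in null mice and 1.45 in wild type mice, while Grhl1, an epithelial transcription factor, rose by 2.79 in null and 2.01 in wild type mice.

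**Figure D4:**
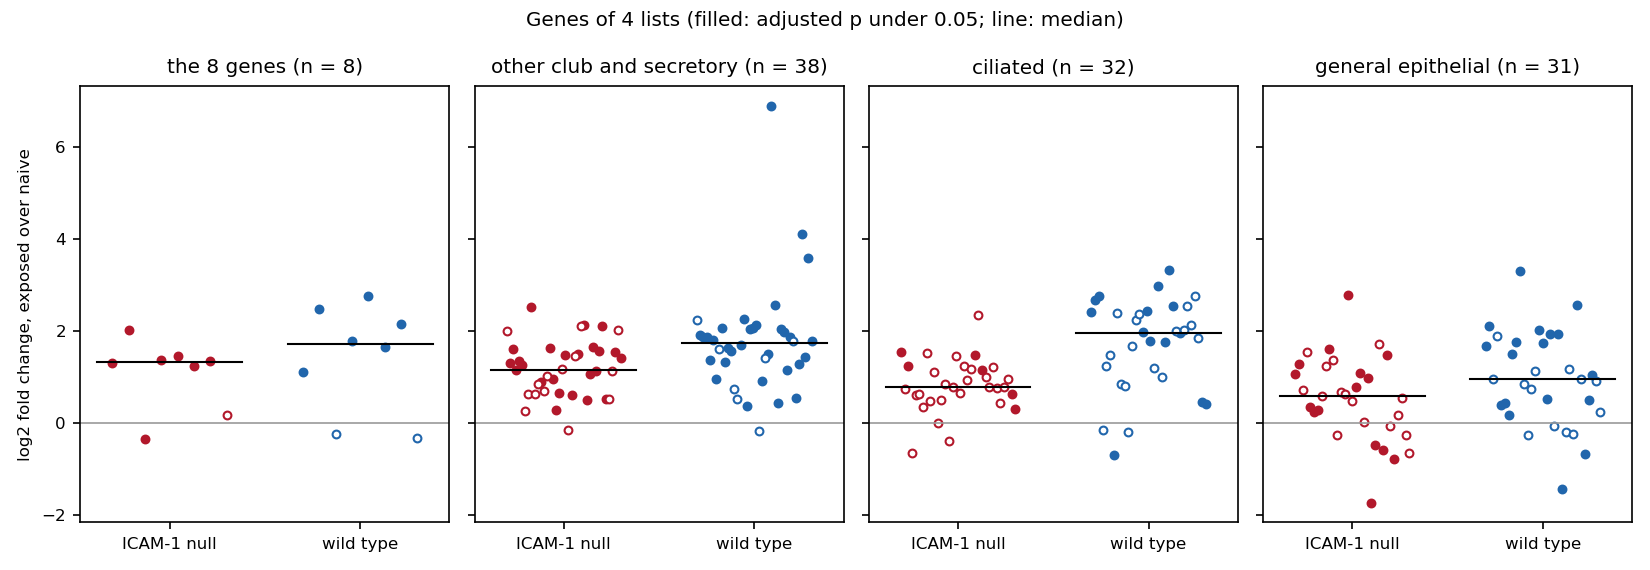
edgeR log2 fold changes on exposure for the 8 genes and the tested genes of 3 lists, null mice left and wild type mice right in each panel, with medians as lines and filled points for an adjusted p under 0.05. The medians of the other club and secretory genes are 1.16 in null and 1.74 in wild type mice, and those of the ciliated genes are 0.79 in null and 1.97 in wild type mice.

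Some markers of other cells also changed on exposure. The summed level of 22 squamous genes of the upper airway was 25.7 to 53.7 TPM in exposed and 8.50 to 16.3 TPM in naive null libraries, and 42.7 to 77.5 TPM in exposed and 10.5 to 16.0 TPM in naive wild type libraries. Of the 13 tested, 6 rose in null and 8 in wild type mice, and none fell. Over all genes tested, 21.4% rose and 23.4% fell in null mice, and 20.1% rose and 20.2% fell in wild type mice. Krt13, a keratin of stratified epithelium, lay at 2.87 to 7.00 TPM in exposed and 0 to 0.240 TPM in naive null libraries, and at 4.97 to 12.5 TPM in exposed wild type libraries, and was listed at 0 in every naive wild type library. Of 19 alveolar epithelial genes, 7 rose and 2 fell in null mice and 12 rose and 1 fell in wild type mice. Between exposed genotypes, 7 were lower in null than in wild type mice, against 4.04% of all genes tested. Sftpa1, which encodes surfactant protein A, was lower in exposed null than in exposed wild type mice (log2 difference -1.02, SE 0.17, adjusted p = 2.5e-04).

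Red cell genes separated the exposed genotypes in the same direction as Scgb1a1. The summed level of 7 red cell genes was 217, 264, 133, 351 and 129 TPM in exposed null libraries, against 828.5, 2399, 370, 2275 and 1084 TPM in exposed wild type libraries. It was 97.7 to 352 TPM in naive null and 134 to 410 TPM in naive wild type libraries. All 5 tested red cell genes rose in wild type mice, against 20.1% of all genes tested, and none passed in null mice, where 21.4% rose. All 5 were also lower in exposed null than in exposed wild type mice, against 4.04% of all genes tested. Among exposed wild type libraries, replicate 2 was highest for the red cell sum and replicate 5 for Scgb1a1, while replicate 3 was lowest for both. Of 8 neutrophil genes tested, 1 rose and 1 fell in null mice, against 21.4% and 23.4% of all genes tested. In wild type mice 4 rose and 1 fell, against 20.1% and 20.2%. Among exposed mice 3 of the 8 were higher and 2 lower in null than in wild type mice, against 4.43% and 4.04%. Their summed level, over 12 genes, was 129 to 179 TPM in exposed null and 177 to 204 TPM in naive null libraries, against 62.8 to 144 TPM in exposed wild type and 76.0 to 115 TPM in naive wild type libraries. In exposed mice Csf3r (log2 difference 1.78, SE 0.08), S100a8 (1.12, SE 0.26) and Cxcr2 (0.74, SE 0.20) were the 3 higher in null mice. S100a9, a calcium-binding protein abundant in neutrophils (-1.46, SE 0.43, adjusted p = 0.036), and Retnlg (-4.31, SE 1.3) were the 2 lower. The part of squamous, alveolar, red cell and neutrophil RNA in the results for the secretory genes was not tested.

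Across all 19 libraries, the genes nearest to Scgb1a1 in pattern were not all airway genes. Likeness was the root mean square difference of log2 CPM (depth-scaled counts) after centring each gene on its own mean, and 11484 genes were eligible. The nearest 8 were Cbr2 (0.47), Hp (0.49), Spp1 (0.51), Stk38l (0.53), Emp1 (0.54), Slc20a1 (0.54), Gprc5a (0.54) and Il20rb (0.54). Spp1, which encodes the secreted phosphoprotein osteopontin, averaged 1107 TPM in exposed and 490 TPM in naive null libraries, and 2191 TPM in exposed and 678 TPM in naive wild type libraries. Among the other 7 genes of the set, the differences were 0.55 for Scgb3a2, 0.56 for Cyp2f2, 0.76 for Scgb3a1, 0.85 for Bpifa1, 0.90 for Bpifb1, 1.20 for Tppp3 and 1.32 for Cdh1, against a median of 1.32 over all genes tested. All of these values share the depth and the exposure of the same libraries and were not tested.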

How the data were processed

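Bulk RNA of lavage cell pellets was measured in 19 libraries. Per the submitters' processing notes, the tools were STAR and StringTie version 2 on build GRCm39. These notes give no strand or counting options. The authors deposited estimated counts, stored as whole numbers and not scaled for depth, and TPM, scaled by the authors for gene length and to a common total per library. All 56941 rows name a gene ID, and 310 of them have no gene symbol.

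The genes and lists were chosen with earlier results of these data known. The tests were two-sided quasi-likelihood F tests on estimated counts in edgeR 4.0.16 (R 4.3.3), with TMM scaling, 1 model of all 19 libraries and the filterByExpr minimum of 10 counts (15 in total). Benjamini-Hochberg adjustment ran over 20501 genes, and 0.05 was the threshold. Alternatives were other size factors, DESeq2 1.42.0, filters, limma 3.58.1 on log2(TPM + 1) or log2(TPM + 0.1), fewer groups, a replicate block and leaving out each library. Scripts were tested on simulated counts.

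Beside the 8 genes, the rule named the 8 genes nearest to Scgb1a1 in pattern, Scgb and Bpif genes with at least 0.1 TPM, and up to 4 genes of each list with the smallest adjusted p on exposure of wild type mice. The text does not name all of them. Krt8, Krt18, Krt19, Epcam, Pigr, Pon1, Cxcr2 and Retnlg were named outside that rule after their values were seen. The labels do not say whether a library is 1 mouse or a pool, so p-values measure the spread between libraries.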

Additional observations from a re-analysis of the deposited data

Results flagged for a closer look

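Among 32 sets of values (8 genes in 4 groups), 2 held a library far from the others of its group, and 1.6 would be flagged by chance at 1 in 20. Scgb1a1 stood at 2525 TPM in exposed wild type replicate 5, against 707 to 1215 TPM in the other 4 libraries of that group. Scgb3a1 stood at 14.7 TPM in naive wild type replicate 3, against 38.1 to 40.1 TPM in the other 3 libraries of that group. What sets these libraries apart was not tested.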

How the results depend on the processing

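The 6 secretory genes kept a positive exposure response in both genotypes under all alternatives, with calls lost for Bpifa1 and Scgb3a1 as given above. The count of genes called lower on exposure of wild type mice was 2 with limma on log2(TPM + 1) and on log2(TPM + 0.1), and 0 to 1 when single libraries were left out. It was 1 without exposed replicate 2 or 5 or naive replicate 2 or 4. In null mice it was 0 to 1, with 0 without naive replicate 2. With both limma settings the direction turned for Tppp3 on exposure of null mice (-0.20 and -0.20) and for Cdh1 between naive genotypes (-0.022 and -0.022).

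When single libraries were left out, Cdh1 ranged from -0.040 to 0.12 between naive genotypes and from -0.12 to 0.033 between exposed genotypes. The interaction ranged from -0.11 to 0.44 for Bpifa1 and from -0.67 to 0.0042 for Cyp2f2. With limma on log2(TPM + 1) and on log2(TPM + 0.1), Lyz1 turned to -0.19 and -0.19 on exposure of wild type mice. In null mice Tubb4b (-0.063 and -0.063), Ctnnb1 (-0.083 and -0.083) and Itgax (-0.064 and -0.064) turned likewise. On all of these the cause was not tested. Over all genes, the interaction gave 68 calls, against 259 with DESeq2, 38 with no filter, 110 with limma on log2(TPM + 1) and as few as 34 without naive wild type replicate 1 or 2.

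Replicate numbers were not shown to pair libraries: none of 18 correlations between same-numbered libraries exceeded 0.1 (-0.045 to 0.073). The replicate block left 5 secretory genes higher in wild type mice, with Bpifa1 at 1.14 (adjusted p = 0.066), and turned Sox9, a scarce transcript, to -0.54. Its other counts among the 8 genes were as in the fit without it. Libraries that correlated best with their own number were 0 of 5 for exposure of null mice, 0 of 4 for exposure of wild type mice, 3 of 5 between exposed genotypes and 1 of 4 between naive genotypes. No limit of detection was tested.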

Other observations

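Of 12 transcription factors of airway cells tested, 3 rose and 2 fell in null mice, near the 21.4% higher and 23.4% lower over all genes tested. In wild type mice 5 rose and 2 fell, against 20.1% higher and 20.2% lower over all genes tested. Nkx2-1, a lung lineage factor, averaged 1.27 TPM in exposed and 0.826 TPM in naive null libraries, and 1.55 TPM in exposed and 0.998 TPM in naive wild type libraries, and rose by 0.86 in null (SE 0.30, adjusted p = 0.025) and 1.09 in wild type mice (SE 0.33, adjusted p = 0.011). Cebpa, a factor of both airway epithelium and macrophages, fell by 1.11 on the log2 scale in null mice and 1.07 in wild type mice, and Cebpd fell by 0.82 in null and 0.82 in wild type mice, while Cebpb rose by 0.92 in null and 0.97 in wild type mice.

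Of 6 tested genes of glands and serous cells, 3 rose in null and 2 in wild type mice, against 21.4% in null and 20.1% in wild type mice over all genes tested. Ltf, which encodes lactoferrin, averaged 38.6 ± 22.2 TPM in exposed and 9.63 ± 5.73 TPM in naive null libraries (SD, n = 5 each), and rose by 2.37 on the log2 scale (SE 0.40, adjusted p = 4.1e-05). It averaged 34.7 ± 6.77 TPM in exposed (SD, n = 5) and 10.5 ± 4.86 TPM in naive wild type libraries (SD, n = 4), and rose by 2.11 (SE 0.43, adjusted p = 4.2e-04). Lyz1, a lysozyme, rose in null mice (0.57, SE 0.09) and did not pass in wild type mice (0.18, SE 0.10).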
